A study of Mus musculus with 6 samples.

Results

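The WAVE complex and N-WASP are the main activators of branched actin assembly in neurons, and 10 mouse genes that encode them are described here. Rows of the deposited gene count tables were taken by symbol: Wasf1, Wasf2, Wasf3, Cyfip1, Cyfip2, Nckap1, Abi1, Abi2, Brk1 and Wasl. All 10 were found among 54134 listed symbols, and 10 of 10 passed the filter on low counts that left 18705 genes for testing.

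The libraries came from prefrontal cortex of mice aged 6 to 8 weeks, with 2 libraries per group and 6 in all. Each library was treated as a separate animal. The first group carried the Shank3 +/ΔC genotype, heterozygous for an allele that lacks the C terminus of the postsynaptic scaffold Shank3, and was given GSK-LSD1, an inhibitor of the histone demethylase LSD1. The second group carried the same genotype and was given vehicle. The third was wild type (WT, C57BL/6 x C3H) and was given vehicle. The mutants keep 1 wild-type Shank3 allele, wild-type mice given GSK-LSD1 were not analysed here, and the labels of the mutants name no strain background, so genotype and any difference in background cannot be told apart. The study's title sets the question whether inhibiting LSD1 changes the deficits of autism mouse models, and the design allows 3 comparisons: vehicle-treated mutants with wild type, GSK-LSD1-treated with vehicle-treated mutants, and GSK-LSD1-treated mutants with wild type.

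The WAVE complex has 5 positions. A WASF protein (WAVE) carries the domain that binds actin and the Arp2/3 complex. A CYFIP protein and NCKAP1 form the platform that holds WASF silent until the GTPase Rac binds CYFIP, while ABI and the small subunit BRK1 complete the assembly. N-WASP, encoded by Wasl, is a relative of the WASF proteins that is released by the GTPase Cdc42 instead. Once active, both switch on the Arp2/3 complex, which starts a new actin filament on the side of an existing one, and in cortical neurons this branched network shapes dendritic spines. CYFIP proteins also bind FMRP, the RNA-binding protein lost in fragile X syndrome, and can repress translation.

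Sequences upstream of 3 of the genes are shown, picked by the results that follow. Against wild type Wasf1 passed the test in both mutant groups, Wasl in treated mutants only, and the paralog Wasf3 in neither. Cyfip2, which passed in both as well, is not shown. RefSeq start sites (GRCm38.p6) matched 7 of the 10 genes, of which only these are printed. Each stretch runs 5′ to 3′ along the gene's own strand and holds the bases upstream of the RefSeq start that also lie upstream of the GENCODE M21 gene. Capitals mark GGGCGG, the GC box bound by Sp-family factors, or its reverse complement. The stretches are chr10:40883284-40883474 (plus strand) for Wasf1, chr6:24665010-24665245 (minus strand) for Wasl, and chr5:146384756-146384984 (plus strand) for Wasf3.
Wasf1: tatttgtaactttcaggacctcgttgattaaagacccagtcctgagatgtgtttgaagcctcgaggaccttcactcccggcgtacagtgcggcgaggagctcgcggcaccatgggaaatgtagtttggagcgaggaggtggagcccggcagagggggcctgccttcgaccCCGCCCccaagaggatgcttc
Wasl: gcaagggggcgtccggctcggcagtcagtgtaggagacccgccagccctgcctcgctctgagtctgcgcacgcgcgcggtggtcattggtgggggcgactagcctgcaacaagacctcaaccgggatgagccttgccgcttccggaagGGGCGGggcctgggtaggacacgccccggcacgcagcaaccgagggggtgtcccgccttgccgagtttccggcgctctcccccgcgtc
Wasf3: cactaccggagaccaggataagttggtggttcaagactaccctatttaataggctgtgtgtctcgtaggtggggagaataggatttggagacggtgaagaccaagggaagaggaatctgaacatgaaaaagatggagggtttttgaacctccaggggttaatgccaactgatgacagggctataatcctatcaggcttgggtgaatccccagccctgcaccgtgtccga
Both strands were searched for the GC box, the E-box CACGTG and the cyclic AMP response element TGACGTCA, and no match overlapped another. The Wasf1 stretch of 191 bases and the Wasl stretch of 236 bases each held 1 GC box, and the Wasf3 stretch of 229 bases held 0. The comparison stretches had the same lengths and lay at the far end of the 250 bases upstream of each of the 32851 RefSeq starts. They were not trimmed to a GENCODE gene start, and they held a GC box in 23.1%, 30.8% and 29.7% of cases in that order. Over the full 250 bases the share was 32.7%. The E-box and the response element were in none of the 3 stretches, against at most 5.52% and 1.39% of all starts. GC content was 58.6% for Wasf1, 70.8% for Wasl and 49.3% for Wasf3, against medians over all starts of 51.3%, 52.1% and 52.0%. The stretches held 12 CpG dinucleotides for Wasf1, 25 for Wasl and 5 for Wasf3, against medians of 4, 5 and 5. A match describes the letters in the window only, and its relation to the read levels was not tested.

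Depth ran from 14133834 to 28646960 counted reads per library, and 3 counts equal 0.105 to 0.212 CPM, the read count scaled to library size, far below every member's level. Levels are CPM after TMM scaling, a correction for differences in library composition. Shank3 was counted at 145.8 to 174.3 CPM and Kdm1a, which encodes LSD1, at 86.3 to 101.9 CPM over the 6 libraries, and no comparison of either passed (edgeR adjusted p from 0.792 to 0.999). The Shank3 count includes exons outside the deleted part and therefore checks the genotype only in a limited way. All 9 marker lists for the cell types of cortex had reads for every member. The summed excitatory neuron markers, which bear on the tissue label, lay at 2858 to 3895 CPM, and the striatal neuron markers at 89.97 to 122.9 CPM. The 2 GSK-LSD1 libraries stood apart from each other in oligodendrocyte markers, which summed to 2435 CPM in library 1 and 5727 CPM in library 2, against 6021 and 6066 CPM in vehicle-treated mutants and 2606 and 2395 CPM in wild type. Calls that involve these libraries are therefore also given with each of them left out.

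Per kilobase of exon, Nckap1, Cyfip2 and Brk1 stood well above the other members. Nckap1 averaged 170.0 CPM per kb over the 6 libraries (range 145 to 191), Cyfip2 166 (142 to 215) and Brk1 151 (137 to 169), and these 3 ranges overlapped. Abi2 followed at 53.4 CPM per kb (45.0 to 60.6) and Wasf1 at 52.7 (41.2 to 72.0), again with overlapping ranges. Abi1 stood at 29.9 (26.5 to 31.5), Wasf3 at 24.8 (23.6 to 26.3), and Wasl at 20.2 (17.5 to 23.3). Abi1 and Wasl did not overlap with Wasf3. Cyfip1 at 8.35 (7.76 to 8.73) and Wasf2 at 1.98 (1.76 to 2.23) came last, each clear of its neighbours. Within their families Wasf1, Cyfip2 and Abi2 thus gave most of the reads per kilobase in each library. Exonic length here is the union of all annotated exons, from 1.095 kb for Brk1 to 11.941 kb for Cyfip1, so genes with long alternative exons read low on this scale.

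**Figure D1:**
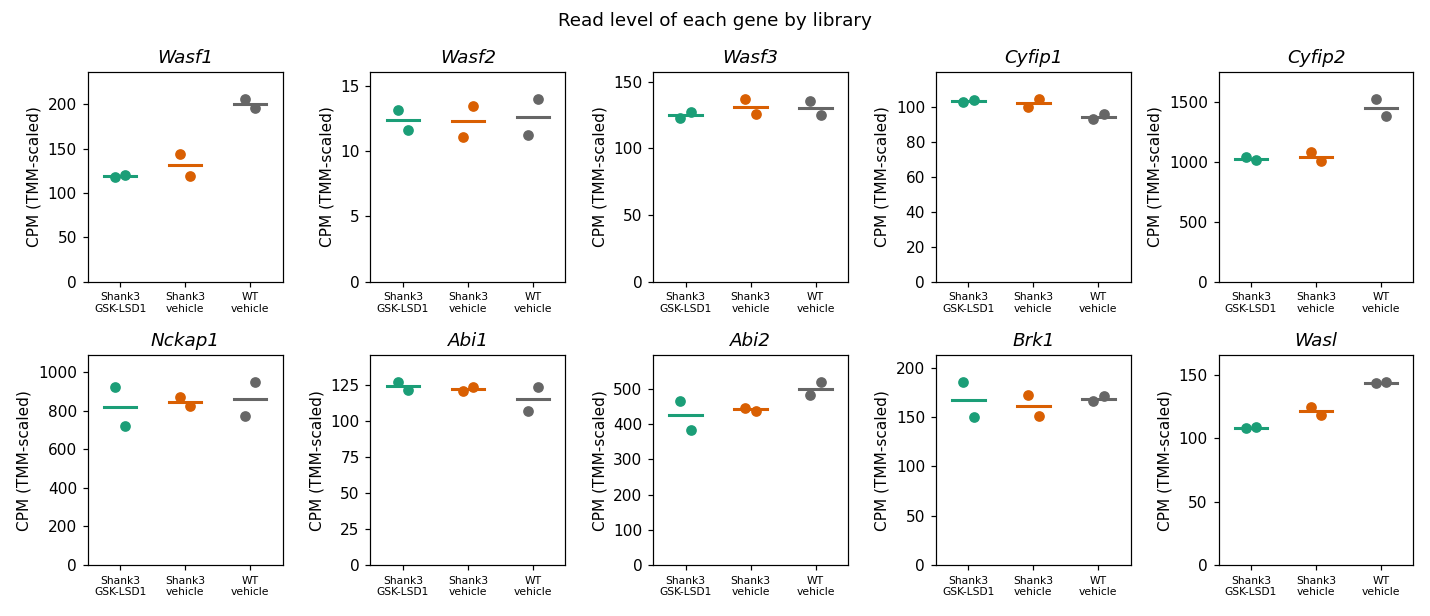
Level of each of the 10 genes (vertical axes, TMM-scaled CPM from 0) in Shank3 +/ΔC mice given GSK-LSD1, Shank3 +/ΔC mice given vehicle and WT mice given vehicle; points are libraries and lines are means of 2. Wasf1, Cyfip2, Wasl and Abi2 lie lower in all 4 mutant libraries than in both WT libraries, and Cyfip1 lies higher. The other genes, Wasf2, Wasf3, Nckap1, Abi1 and Brk1, overlap between groups. Of all tested genes 46.2% in vehicle-treated and 45.8% in treated mutants had no overlap with WT.

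In vehicle-treated mutants 2 of 10 genes, Wasf1 and Cyfip2, were lower than wild type past the threshold and 0 higher (edgeR; 3 at an unadjusted p under 0.05), where 0.994% of all tested genes were called lower, 1.27% called in either direction and 14.0% had an unadjusted p under 0.05. The median log2 fold change of the 10 was -0.06, against 0.02 over all tested genes, and 7 of the 10 values were negative, against 47.7% of all genes. The groups did not overlap for 5 of the 10, a share near the 46.2% of all tested genes. In treated mutants against wild type 3 of 10 were lower, Wasf1, Cyfip2 and Wasl, where 1.99% of all genes were called lower and 2.62% called in either direction, and the median was -0.06 against 0.02. All 3 of these, and no further member, had an unadjusted p under 0.05, as 15.7% of all genes did. Negative values were found for 8 of the 10, against 47.4% of all genes, and groups that did not overlap for 5 of the 10, against 45.8%. Between treated and untreated mutants 0 of 10 passed by edgeR, DESeq2 or limma-voom, and 0 had an unadjusted p under 0.05, where 0.107% and 5.70% of all genes passed these thresholds. The 10 log2 fold changes there ran from -0.16 to 0.05, with a median of -0.04 against -0.001 over all genes. Of the 10 values 6 were negative, against 50.1% of all genes, and only Wasl had groups that did not overlap, against 33.6% of all genes. The 10 genes were chosen with earlier results of these data known, so these shares are a description and give no test of an excess. Without wild-type library 1, 0 of 10 passed in either comparison with wild type, and the count over all genes dropped to 6 in each.

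Among the WASF genes, which encode the activating subunit, only Wasf1 passed the test. Wasf1 (ENSMUSG00000019831.14, chromosome 10, 40883475 to 40938570, plus strand, GRCm38) encodes WAVE1, the neuronal form found at spines. It was counted at 117.6 and 120.1 CPM in the GSK-LSD1 libraries, 144.1 and 119.7 CPM in the Shank3 vehicle libraries, and 205.6 and 195.2 CPM in the wild-type libraries. Every mutant library was below both wild-type libraries, and the treated and untreated mutants overlapped. In vehicle-treated mutants Wasf1 averaged 131.9 ± 17.2 CPM, against 200.4 ± 7.35 CPM in wild type (SD, n = 2 each), a log2 fold change of -0.60 ± 0.11 (SE; edgeR quasi-likelihood test, Benjamini-Hochberg adjusted p = 0.0221). With GSK-LSD1 it averaged 118.8 ± 1.80 CPM, and the log2 fold change against wild type was -0.75 ± 0.11 (edgeR adjusted p = 0.00458). These contrasts share the wild-type libraries. Between treated and untreated mutants the log2 fold change was -0.15 with a 95% interval from -0.38 to 0.08 (edgeR adjusted p = 0.986).

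The call on Wasf1 in vehicle-treated mutants held in 14 of 19 alternatives. It was lost with library size scaling (-0.53) and without the robust option of edgeR (-0.60). It was also lost without wild-type library 1 (log2 fold change -0.57), without Shank3 vehicle library 1 (-0.75) and without Shank3 vehicle library 2 (-0.47), with edgeR adjusted p-values of 0.318, 0.0521 and 0.221, where alternatives ranged from 6.37e-05 to 0.318. Against wild type, the treated mutants kept the call in 18 of 19 alternatives and lost it without wild-type library 1 (-0.72, edgeR adjusted p = 0.0717, range over alternatives 7.17e-08 to 0.0717). Without GSK-LSD1 library 1 the value was -0.74 and without library 2 it was -0.77, both past the threshold.

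The other WASF genes did not pass in any comparison. Wasf3 (ENSMUSG00000029636.10), which encodes WAVE3, had 122.4 and 127.4 CPM in GSK-LSD1 mice, 136.8 and 125.8 CPM in vehicle-treated mutants, and 135.8 and 124.9 CPM in wild type. Its log2 fold change in vehicle-treated mutants was 0.01, with a 95% interval from -0.21 to 0.23, and it turned negative with wild-type library 2 or Shank3 vehicle library 1 left out. Wasf2, which encodes the widely expressed WAVE2, had 13.14 and 11.58 CPM in GSK-LSD1 mice, 11.03 and 13.47 CPM in vehicle-treated mutants, and 11.23 and 13.95 CPM in wild type. Its interval for vehicle-treated mutants against wild type ran from -0.43 to 0.33, the widest among the 10 genes in that comparison, and its sign turned with library size scaling, with the replicate block plus length and GC offset, and with single libraries left out. The libraries of all 3 groups were interleaved for both genes.

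At the CYFIP position the 2 paralogs had opposite signs. Cyfip2 (ENSMUSG00000020340.16, chromosome 11, 46193850 to 46312859, minus strand) had 1040 and 1018 CPM in GSK-LSD1 mice, 1083 and 1012 CPM in vehicle-treated mutants, and 1527 and 1383 CPM in wild type. All 4 mutant libraries lay below both wild-type ones, and the mutant groups overlapped. Its log2 fold change was -0.47 ± 0.11 in vehicle-treated mutants (edgeR adjusted p = 0.0493) and -0.50 ± 0.11 in GSK-LSD1-treated mutants against wild type (edgeR adjusted p = 0.0258), so Cyfip2 fell in both. Between treated and untreated mutants it was -0.03, with a 95% interval from -0.27 to 0.21. Cyfip1 (ENSMUSG00000030447.15, chromosome 7, 55841745 to 55932602, plus strand) had 102.4 and 103.5 CPM in GSK-LSD1 mice, 99.79 and 104.2 CPM in vehicle-treated mutants, and 92.68 and 95.64 CPM in wild type. Its 4 mutant libraries were above both wild-type ones, but the log2 fold change of 0.11 in vehicle-treated mutants did not pass (95% interval -0.10 to 0.33, edgeR adjusted p = 0.687). The exons of Cyfip1 share 1316 bases with Nipa2 on the opposite strand and no source used here gives the strand setting of the counting. The Cyfip1 count may therefore be affected by this overlap, in a direction that is not known.

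The call on Cyfip2 in vehicle-treated mutants sat at the threshold: it held in 9 of 19 alternatives, with log2 fold changes from -0.55 to -0.40 and edgeR, DESeq2 or limma-voom adjusted p-values from 0.000234 to 0.586. It was lost without each of the wild-type libraries (-0.41 without library 1, -0.55 without library 2) and without each of the Shank3 vehicle libraries (-0.53 and -0.43). Upper quartile scaling, library size scaling and the fit without the robust option of edgeR also ended it. So did the replicate block, the length and GC offset, and both together. For treated mutants it held in 14 of 19 alternatives and was lost without wild-type library 1 (-0.43), wild-type library 2 (-0.57), Shank3 vehicle library 1 (-0.50) or GSK-LSD1 library 2 (-0.48). Using only the 4 libraries compared (-0.50) ended it too.

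The platform and accessory subunits did not pass in any comparison. Nckap1, the scaffold partner of CYFIP, had 921.2 and 718.8 CPM in GSK-LSD1 mice, 869.7 and 824.3 CPM in vehicle-treated mutants, and 772.7 and 946.3 CPM in wild type. Libraries of 1 group differed by more than the group means did, and the 95% interval for vehicle-treated mutants against wild type was -0.30 to 0.26. Brk1, the smallest subunit, had 184.9 and 149.6 CPM in GSK-LSD1 mice, 172.2 and 150.5 CPM in vehicle-treated mutants, and 165.9 and 171.3 CPM in wild type, with an interval of -0.31 to 0.18 in the same comparison. Both genes changed sign in some alternatives.

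Abi1 and Abi2 encode the Abl-interacting adaptors that join WASF to NCKAP1. Abi2 had 466.5 and 384.1 CPM in GSK-LSD1 mice, 445.5 and 437.7 CPM in vehicle-treated mutants, and 483.3 and 518.1 CPM in wild type. Its mutant libraries were below the wild-type ones, yet the log2 fold changes of -0.18 in vehicle-treated and -0.24 in GSK-LSD1-treated mutants did not pass (95% intervals -0.42 to 0.06 and -0.48 to 0.01). Abi1 had 126.8 and 121.6 CPM in GSK-LSD1 mice, 121.0 and 123.9 CPM in vehicle-treated mutants, and 106.7 and 124.0 CPM in wild type. Its groups overlapped through wild-type library 2 and its log2 fold change in vehicle-treated mutants was 0.08 (-0.14 to 0.31). Abi1 shares 194 exonic bases with Pdss1 on the opposite strand.

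Wasl (ENSMUSG00000029684.14, chromosome 6, 24613805 to 24665009, minus strand) had 107.9 and 108.7 CPM in GSK-LSD1 mice, 124.4 and 118.3 CPM in vehicle-treated mutants, and 143.2 and 143.8 CPM in wild type. The 3 groups did not overlap, with treated mutants lowest and wild type highest. In GSK-LSD1-treated mutants Wasl averaged 108.3 ± 0.593 CPM, against 143.5 ± 0.407 CPM in wild type (SD, n = 2 each), and it fell by 0.41 ± 0.10 on the log2 scale (edgeR adjusted p = 0.038). The difference between vehicle-treated mutants and wild type, -0.24 ± 0.10, did not pass (edgeR adjusted p = 0.271), nor did that between treated and untreated mutants, -0.16 ± 0.10 (edgeR adjusted p = 0.965). The call in treated mutants held in 9 of 19 alternatives, with values from -0.41 to -0.32. It was lost with upper quartile scaling (-0.38) and library size scaling (-0.32). The fit without the robust option (-0.41) and that of only the 4 libraries compared (-0.40) lost it too. Leaving out any single library of the 6 also ended it, although the value stayed at -0.41.

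**Figure D2:**
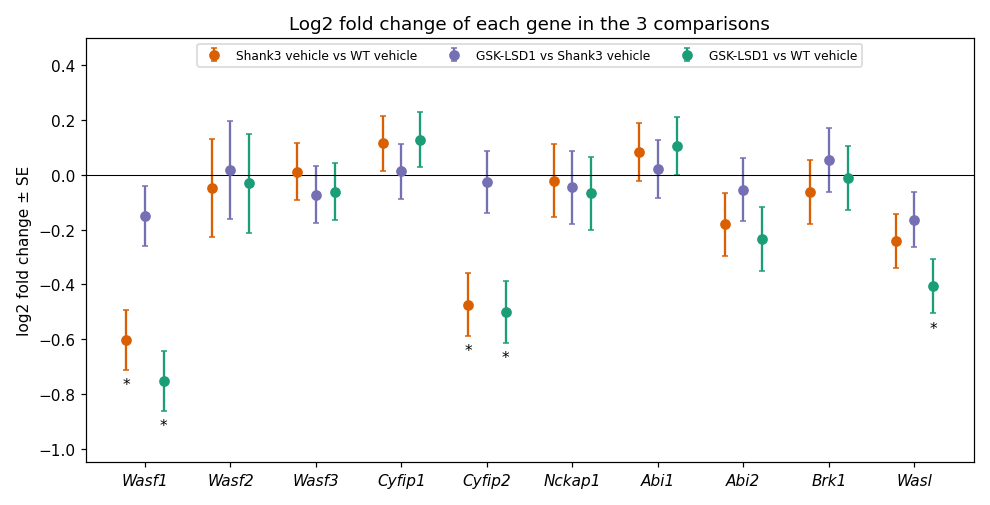
Log2 fold change ± SE of each gene in vehicle-treated mutants against WT, GSK-LSD1-treated against vehicle-treated mutants, and GSK-LSD1-treated mutants against WT, from the edgeR fit of all 6 libraries; asterisks mark an adjusted p under 0.05. Wasf1 and Cyfip2 carry an asterisk in both comparisons with WT, Wasl in 1 of them, and none of the 10 genes does between treated and untreated mutants.

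Ratios between paralogs of 1 library do not depend on how libraries are scaled. Wasf1 supplied 61.6% and 61.5% of WASF counts per kilobase with GSK-LSD1, 64.3% and 61.4% in vehicle-treated mutants, and 72.1% and 72.3% in wild type. The wild-type libraries stood apart from all mutant ones, with differences of -9.33 percentage points for vehicle-treated and -10.6 points for GSK-LSD1-treated mutants. Wasf3 supplied most of the rest, with 35.2% and 35.8% in GSK-LSD1 mice, 33.5% and 35.4% in vehicle-treated mutants, and 26.1% and 25.4% in wild type. Cyfip2 supplied 94.5% and 94.3% of CYFIP counts per kilobase with GSK-LSD1, 94.8% and 94.2% in vehicle-treated mutants, and 96.5% and 96.0% in wild type. Abi2 supplied 63.5% and 59.9% of ABI counts with GSK-LSD1, 63.5% and 62.5% in vehicle-treated mutants, and 68.1% and 66.3% in wild type. For all 3 families the wild-type shares were above every mutant share and the mutant groups overlapped. An exact two-sided permutation test gave p = 0.333 for each comparison with wild type, the smallest that 2 against 2 libraries allow, so this test cannot pass 0.05 here, and no model of the shares was fitted.

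**Figure D3:**
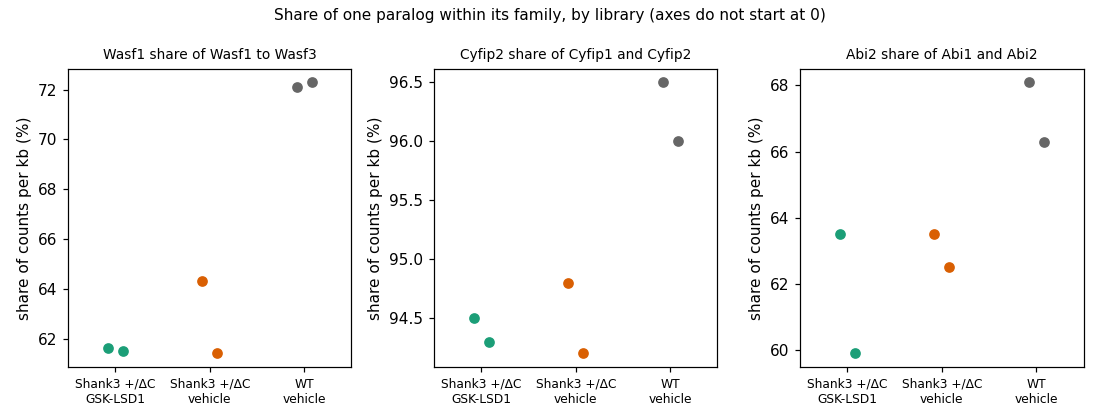
Share of counts per kilobase (percent, axes not starting at 0) that Wasf1, Cyfip2 and Abi2 supply within their families, 1 point per library, in GSK-LSD1-treated mutants, vehicle-treated mutants and WT. Both WT libraries lie above all 4 mutant libraries in each panel, for Wasf1 at 72.1% and 72.3% against 61.4% to 64.3%.

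Summed over paralogs, the WASF and CYFIP positions were lower in all 4 mutant libraries than in both wild-type libraries. WASF sums were 66.85 and 68.46 CPM per kb in GSK-LSD1 mice, 78.58 and 68.32 in vehicle-treated mutants, and 99.95 and 94.64 in wild type. CYFIP sums were 154.9 and 152.1 CPM per kb in GSK-LSD1 mice, 160.8 and 151.2 in vehicle-treated mutants, and 222.7 and 202.7 in wild type. In wild type the CYFIP sum was above Nckap1 in both libraries, and it was below Nckap1 in both Shank3 vehicle libraries. With GSK-LSD1 it was below Nckap1 in library 1 and above it in library 2. ABI sums, unlike Abi2 itself, overlapped between treated mutants and wild type, at 86.05 and 75.13 CPM per kb with GSK-LSD1 and 83.03 and 91.40 in wild type. These sums are a description of transcript levels, with no test.

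**Figure D4:**
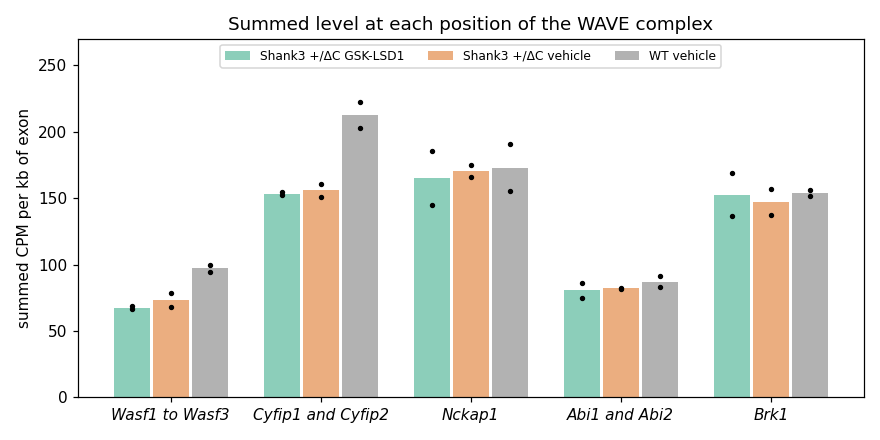
Summed CPM per kb of exon (vertical axis, from 0) at the 5 positions of the WAVE complex; bars are means of 2 libraries and dots are libraries, for GSK-LSD1-treated mutants, vehicle-treated mutants and WT. The WASF and CYFIP sums are lower in all mutant libraries than in WT, while Nckap1 and Brk1 overlap between groups.

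Over the 6 libraries Wasf1, Cyfip2 and Wasl had positive correlations with each other, and Cyfip1 had negative ones with them. Wasf1, Cyfip2 and Wasl were picked as called lower than wild type, and every mutant library of Cyfip1 lay above both wild-type ones. Positive values among the former and negative ones with Cyfip1 were therefore favoured in advance. As a description over 6 points that share libraries and groups, Pearson's r of log2 CPM was 0.977 between Wasf1 and Cyfip2, 0.966 between Wasf1 and Wasl, -0.978 between Cyfip1 and Wasf1, and -0.982 between Cyfip1 and Cyfip2. The value was 0.916 between Cyfip2 and Wasl and -0.910 between Cyfip1 and Wasl. Nckap1 had r of 0.147 with Wasf1 and 0.757 with Brk1. Among 10026 other genes with a mean of at least 10 CPM, the patterns most like Wasf1 were those of Nrxn3, a presynaptic adhesion protein (0.9967), Ankrd17 (0.9955) and the ubiquitin ligase Huwe1 (0.9937). Those most like Cyfip2 were Arfgef3 (0.9995), the amyloid precursor protein gene App (0.9972) and Fry (0.9967), and those most like Wasl were the transcription factor Klf12 (0.9985), Bod1l (0.9972) and the protease Adam19 (0.9949). Cyfip2 ranked at place 60 for Wasf1 and Wasl at place 118. For Cyfip2, Wasl ranked at place 666, and for Wasl, Cyfip2 ranked at place 304.

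Markers of several cell types differed in the same comparisons. In vehicle-treated mutants against wild type, 10 of 10 oligodendrocyte markers were positive with 0 passing edgeR (1 at an unadjusted p under 0.05), 8 of 8 astrocyte markers were positive with 3 passing, and 6 of 8 excitatory neuron markers were negative with 1 passing. Over all tested genes 1.27% passed, 14.0% had an unadjusted p under 0.05 and 47.7% were negative. GSK-LSD1 library 1 had summed oligodendrocyte markers at the wild-type level. Its astrocyte sum of 5263 CPM was above both wild-type libraries, and its excitatory neuron sum of 3312 CPM was below both. This library had Wasf1 at 117.6 CPM, Cyfip2 at 1040 CPM and Wasl at 107.9 CPM, each below both wild-type libraries. In GSK-LSD1-treated mutants against wild type 4 of 8 astrocyte markers were higher and 2 of 8 excitatory neuron markers lower past the threshold. Of all genes 2.62% were called there in either direction. In vehicle-treated mutants 1 of 6 oligodendrocyte precursor and 2 of 8 endothelial and pericyte markers were also higher past the threshold. Summed astrocyte markers lay at 5263 to 5308 CPM in GSK-LSD1 mice, 5285 to 5463 CPM in vehicle-treated mutants, and 3854 to 4766 CPM in wild type. Summed excitatory neuron markers lay at 2858 to 3312 CPM in GSK-LSD1 mice, 3202 to 3235 CPM in vehicle-treated mutants, and 3709 to 3895 CPM in wild type, with no overlap between mutants and wild type. Slc17a7 (mean 1481 CPM) and Camk2a (1345 CPM) made up most of this sum, and Camk2a overlapped between groups. Of the 8 markers 5 had no overlap between vehicle-treated mutants and wild type, against 46.2% of all genes. Slc17a6 was higher in every mutant library than in both wild-type libraries. Summed pan-neuronal markers lay at 5928 to 6523 CPM in GSK-LSD1 mice, below both other groups, at 6633 to 7212 CPM in vehicle-treated mutants and at 6726 to 7344 CPM in wild type, and 1 of 8 was lower past the threshold in treated mutants against wild type (median log2 fold change -0.17). The part of any of these cell types in the lower Wasf1, Cyfip2 and Wasl was not tested, and in bulk tissue fewer cells of a type and less RNA per cell cannot be told apart.

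The wider pathway was followed in 80 tested genes of 8 further lists, chosen with earlier results of these data known. Their called shares beside those of all genes are a description and give no test of an excess. In vehicle-treated mutants against wild type 1 was higher and 2 lower past the threshold, or 3.75% against 1.27% of all genes. In GSK-LSD1-treated mutants against wild type 2 were higher and 7 lower, or 11.2% against 2.62% of all genes. Between treated and untreated mutants 0 passed by edgeR, DESeq2 or limma-voom. An unadjusted p under 0.05 was found for 3, or 3.75% against 5.70% of all genes. Without wild-type library 1, 0 of the 80 passed in either comparison with wild type.

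Upstream of WAVE, neither Rac1 nor Cdc42, the GTPases that release WAVE and N-WASP, passed in any comparison. Rac1 averaged 242.4 ± 13 CPM in GSK-LSD1 mice, 244.1 ± 13.2 CPM in vehicle-treated mutants and 233.5 ± 3.83 CPM in wild type. Where 1.99% of all genes were called lower in treated mutants against wild type, 1 of 14 GTPases and WAVE partners fell. This was Srgap3, a Rac GTPase-activating protein that binds WAVE1, with 192.3 and 240.0 CPM in GSK-LSD1 mice, 224.5 and 256.8 CPM in vehicle-treated mutants, and 378.0 and 295.1 CPM in wild type. Its log2 fold change was -0.64 ± 0.14 in treated mutants (edgeR adjusted p = 0.0227) and -0.48 ± 0.14 in vehicle-treated ones (edgeR adjusted p = 0.0996). The call in treated mutants was lost without wild-type library 1 or GSK-LSD1 library 1, and with library size scaling (-0.55). In vehicle-treated mutants 0 of the 14 passed edgeR, while DESeq2 called 2 and limma-voom 0. An unadjusted p under 0.05 was found for 6, against 14.0% of all genes. Dock3, a Rac exchange factor of neurons, was at -0.32 there. Trio, another exchange factor, was at -0.31 in treated mutants, and Rhog, a Rac relative, at -0.33 between treated and untreated mutants, where 0 of 14 had an unadjusted p under 0.05.

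Of 11 N-WASP partners 2 fell in treated mutants against wild type, where 1.99% of all genes were called lower. Fnbp1l, the membrane-curving adaptor Toca-1 that recruits N-WASP, had 81.87 and 73.86 CPM in GSK-LSD1 mice, 105.4 and 100.6 CPM in vehicle-treated mutants, and 127.2 and 120.3 CPM in wild type. Like Wasl, it showed 3 groups without overlap in the same order, with log2 fold changes of -0.67 ± 0.10 for treated mutants against wild type (edgeR adjusted p = 0.00475), -0.26 ± 0.10 for vehicle-treated mutants (edgeR adjusted p = 0.241) and -0.40 ± 0.10 between treated and untreated mutants (edgeR adjusted p = 0.296). Wipf2, a WIP family protein that binds and stabilises N-WASP, had 64.23 and 66.97 CPM in GSK-LSD1 mice, 74.42 and 71.92 CPM in vehicle-treated mutants, and 93.09 and 85.31 CPM in wild type, and it fell by 0.44 ± 0.10 on the log2 scale in treated mutants (edgeR adjusted p = 0.029). Leaving out wild-type library 1 ended both calls, and leaving out either GSK-LSD1 library, library size scaling (-0.36) or using only the 4 libraries compared (-0.44) ended the Wipf2 call. Fnbp1, a relative of Fnbp1l, had 44.52 and 70.31 CPM in GSK-LSD1 mice, 67.80 and 70.29 CPM in vehicle-treated mutants, and 46.13 and 47.66 CPM in wild type (0.56 ± 0.18 in vehicle-treated mutants against wild type, edgeR adjusted p = 0.184). Its low and high libraries were those with low and high oligodendrocyte markers, whose part in this value was not tested.

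Downstream, 9 of 10 Arp2/3 subunits did not pass in either comparison with wild type, where 1.27% and 2.62% of all genes were called. The exception was Arpc1b, the form of the ARPC1 subunit that is abundant in blood cells, with 8.267 and 10.83 CPM in GSK-LSD1 mice, 10.48 and 10.39 CPM in vehicle-treated mutants, and 4.312 and 5.420 CPM in wild type. It rose in vehicle-treated mutants (1.08 ± 0.21, edgeR adjusted p = 0.0254) and in treated mutants (0.94 ± 0.21, edgeR adjusted p = 0.0246), both relative to wild type. The call was lost without wild-type library 1 in both, without either Shank3 vehicle library in the first, and without GSK-LSD1 library 2 in the second. It was also lost without the robust option of edgeR in vehicle-treated mutants (1.08, adjusted p = 0.0531), where DESeq2 gave no adjusted p, and with limma-voom in treated mutants (0.88, adjusted p = 0.0585). Its log2 fold changes ran from 0.94 to 1.27 over the alternatives in vehicle-treated mutants and from 0.75 to 1.13 in treated mutants. The median log2 fold change of the 10 subunits was 0.01 in vehicle-treated and 0.10 in treated mutants, against 0.02 over all genes in each. Arpc5, another subunit, was at 0.14 and 0.27 in the same comparisons and Actr3, which encodes the Arp3 core, at 0.15 between treated and untreated mutants. Microglia markers were positive for 9 of 9 members in vehicle-treated mutants against wild type with 0 passing edgeR (3 at an unadjusted p under 0.05), and summed to 442.2 to 474.2 CPM in GSK-LSD1 mice, 437.1 to 504.8 CPM in vehicle-treated mutants, and 365.7 to 427.7 CPM in wild type. Over all genes 14.0% had an unadjusted p under 0.05 in vehicle-treated mutants against wild type. The part of microglia in the Arpc1b result was not tested.

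Of 10 tested Arp2/3 modulators 1 fell in treated mutants against wild type, where 1.99% of all genes were called lower. Coro2b, a neuronal coronin, had 52.62 and 70.31 CPM in GSK-LSD1 mice, 70.42 and 62.85 CPM in vehicle-treated mutants, and 104.0 and 85.06 CPM in wild type, with log2 fold changes of -0.62 ± 0.14 in treated (edgeR adjusted p = 0.0296) and -0.50 ± 0.14 in vehicle-treated mutants (edgeR adjusted p = 0.0962). The call was lost without wild-type library 1 or GSK-LSD1 library 1, with library size scaling (-0.54), with the replicate block plus length and GC offset (-0.59), and with only the 4 libraries compared (-0.62). Gmfb, which takes Arp2/3 branches apart, was at -0.26 between treated and untreated mutants (edgeR adjusted p = 0.831), and Coro1a, another coronin, at 0.17. Cttn, which encodes the branch stabiliser cortactin, was at -0.25 in vehicle-treated and -0.17 in treated mutants against wild type, and neither passed.

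Nucleators that do not use the Arp2/3 complex were compared as a neighbouring class. Of 16 formins and other nucleators 2 fell in vehicle-treated mutants, and 3 fell and 1 rose in treated mutants against wild type. Over all genes 1.27% were called in vehicle-treated and 2.62% in treated mutants, in either direction. Fmn2, a formin that works with Spire proteins, had 70.85 and 79.44 CPM in GSK-LSD1 mice, 88.94 and 78.41 CPM in vehicle-treated mutants, and 132.8 and 114.5 CPM in wild type, a log2 fold change of -0.56 ± 0.11 in vehicle-treated (edgeR adjusted p = 0.0302) and -0.72 ± 0.11 in treated mutants (edgeR adjusted p = 0.00475). Cobl, the nucleator cordon-bleu of dendrites, had 165.9 and 175.0 CPM in GSK-LSD1 mice, 179.3 and 172.6 CPM in vehicle-treated mutants, and 238.5 and 232.5 CPM in wild type (-0.42 ± 0.10 and -0.47 ± 0.10, edgeR adjusted p = 0.0494 and 0.0202 for vehicle-treated and treated mutants). Fhod3 fell in treated mutants against wild type (-0.50 ± 0.11, edgeR adjusted p = 0.0181), and Daam2 rose (0.59 ± 0.15, edgeR adjusted p = 0.0416). In vehicle-treated mutants the Fmn2 call held in 14 of 19 alternatives, with log2 fold changes from -0.67 to -0.46, and was lost with library size scaling and without the robust option. The Cobl call held in 8 of 19, with values from -0.45 to -0.35, and was lost with upper quartile or library size scaling, without the robust option, with the replicate block, with the length and GC offset, with both together, and with limma-voom. The calls on Fmn2 and Cobl in vehicle-treated mutants were lost without wild-type library 1 or either Shank3 vehicle library, and that on Cobl also without wild-type library 2. In treated mutants the Fmn2 call was lost without wild-type library 1, the Fhod3 call without that library or GSK-LSD1 library 2, the Daam2 call without either of these or wild-type library 2, and the Cobl call without any 1 of the wild-type or GSK-LSD1 libraries. Library size scaling also ended the Fhod3, Daam2 and Cobl calls there, and the Daam2 call was further lost without the robust option, with limma-voom and with only the 4 libraries compared. Fmnl2 was at -0.31 and Daam1 at -0.18 between treated and untreated mutants, and neither passed.

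**Figure D5:**
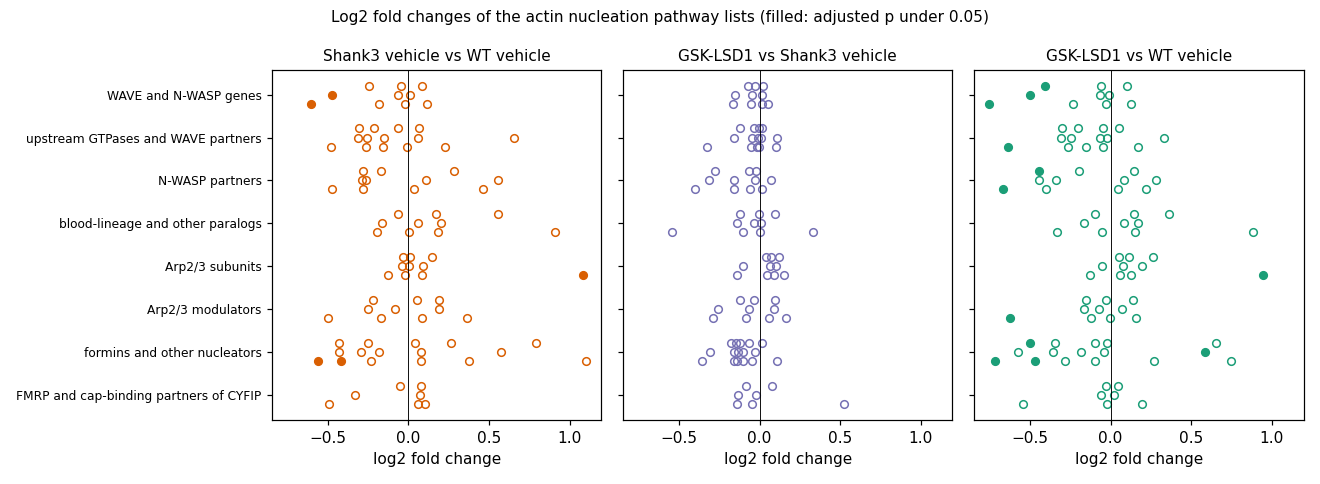
Log2 fold change (horizontal axes) of the WAVE and N-WASP genes and 7 further pathway lists in the 3 comparisons, 1 circle per gene, filled where the edgeR adjusted p was under 0.05. Filled circles appear in both comparisons with WT and not between GSK-LSD1-treated and vehicle-treated mutants, and the vertical position within a list has no meaning.

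CYFIP partners outside the actin pathway did not pass. Over all genes 14.0% and 15.7% had an unadjusted p under 0.05 in vehicle-treated and treated mutants against wild type. None of 7 genes around FMRP and the translation cap passed edgeR in the comparisons with wild type (1 with an unadjusted p under 0.05 in each; DESeq2 called 0 and 1, limma-voom 0 and 0, in vehicle-treated and treated mutants), and Fmr1, which encodes FMRP, averaged 64.43 ± 4.21 CPM in GSK-LSD1 mice, 71.05 ± 3.17 CPM in vehicle-treated mutants and 67.20 ± 5.98 CPM in wild type. Eif4ebp2, a brake on cap-dependent translation in brain, was at -0.50 in vehicle-treated mutants (edgeR adjusted p = 0.142) and -0.54 in treated mutants (edgeR adjusted p = 0.0822), while its relative Eif4ebp1 was at 0.53 between treated and untreated mutants (edgeR adjusted p = 0.903). Of 10 blood-lineage paralogs and other nucleation-promoting factors 0 passed edgeR, DESeq2 or limma-voom in any comparison, with 0, 0 and 1 at an unadjusted p under 0.05. Within that list Nckap1l, the haematopoietic counterpart of Nckap1, averaged 13.68 ± 2.30 CPM in GSK-LSD1 mice, 13.78 ± 1.42 CPM in vehicle-treated mutants and 12.11 ± 2.60 CPM in wild type, and Jmy, a nuclear and cytoplasmic nucleation factor, was at -0.33 in treated mutants against wild type (edgeR adjusted p = 0.152). Washc5, a subunit of the endosomal WASH complex, was at -0.17 in the same comparison and Washc2 at -0.10 between treated and untreated mutants. The cytoplasmic actins did not pass either: Actb had log2 fold changes of 0.06 in vehicle-treated and 0.20 in treated mutants against wild type, and Actg1 had -0.06 and -0.01.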

How the data were processed

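The 6 libraries form 3 groups of 2. Ribosomal RNA was removed before stranded libraries were made, per the labels' protocols. The authors deposited unnormalised read counts for each gene symbol, and per the submitters' processing notes cutadapt, TopHat2, SAMtools, featureCounts and edgeR were used with mm10 (GRCm38). No source used here gives versions, annotation release or strand setting. Within each group the 2 libraries differed beyond counting noise (chi-square over its degrees of freedom 9.07 to 12). This spread cannot tell separate animals from repeat libraries of the same animal, and treating each library as a separate animal is an assumption.

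R 4.3.3 with edgeR 4.0.16 (filterByExpr, TMM, robust quasi-likelihood fit of 3 groups to 6 libraries, 3 residual degrees of freedom) gave two-sided tests, adjusted by Benjamini-Hochberg over 18705 genes with a threshold of 0.05. Each SE was obtained from the log2 fold change and the F statistic, and intervals are 95% from the fit's t distribution. Depth was 14133834 to 28646960 reads, and floors cover counting error only. Coordinates and exonic lengths came from GENCODE M21, which matched 98.7% of tested symbols. The members and lists were chosen with earlier results of these data known. All 10 members were named, and of each other list the genes past the threshold and the 2 with the smallest p per comparison, and the 3 genes most like each called member. Rac1, Cdc42 and Nckap1l were added for their role after their values were seen. Alternatives were other scalings, filters, thresholds and samples, DESeq2 1.42.0, limma-voom (limma 3.58.1), the replicate number as a block, a length and GC offset, and each library left out. The procedure was tested on simulated data. No protein sequences were used here.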

Additional observations from a re-analysis of the deposited data

How the results depend on the processing

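Of 570 values of the 10 genes over 19 alternatives and 3 comparisons, 498 kept direction and side of the threshold. In the same direction 31 lost a call and 0 gained one. The other 41 turned sign, none larger than 0.14 and none of a gene called in that comparison. Most of the 570 belong to genes that were not called and had no call to lose, and the threshold of 0.10 could lose none. Against wild type Wasf1 kept its call in 14 of 19 alternatives in vehicle-treated and 18 of 19 in treated mutants. Cyfip2 kept its call in 9 and 14, and Wasl in 9 for treated mutants. The causes of these changes were not tested, beyond the fewer samples of the fits with a library left out, in which the lone library of a group is assumed to vary like the others.

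The count of members called in vehicle-treated mutants against wild type, 2 in the report, was 1 with upper quartile scaling, the replicate block (Wasf1 at -0.61), the length and GC offset, or both together, and 0 with library size scaling or without the robust option. In treated mutants against wild type the count, 3 in the report, was 1 with only the 4 libraries compared. With a library left out these counts ran from 0 to 2 in both. Over all genes, the number called in vehicle-treated mutants against wild type, 52 higher and 186 lower in the report, was 15 higher and 20 lower with library size scaling, 45 and 96 with upper quartile scaling, 11 in all without the robust option, 137 with limma-voom, 602 with DESeq2, 807 with no filter, 552 at a threshold of 0.10, 524 with only the 4 libraries and 6 to 656 with a library left out. In treated mutants against wild type, with 119 higher and 372 lower in the report, it was 111 and 142 with library size scaling, 782 in all with DESeq2, 962 with no filter, 871 at a threshold of 0.10 and 6 to 631 with a library left out. Between treated and untreated mutants the 20 became 35 with DESeq2, 106 with no filter and 10 to 83 with a library left out. Paralog shares without length scaling differed from wild type by -12.0 points for Wasf1 in treated mutants, and by -2.79 and -3.00 points for Cyfip2 in vehicle-treated and treated mutants.

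Same-numbered libraries did not deviate together (r of -0.0501, 0.0760 and -0.0577 over 13961 genes). Each group has only 2 libraries, so this cannot exclude a pairing by replicate number, and the main fit used none. The block moved the count of all genes called in vehicle-treated mutants to 233.

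Values that turned sign, all far from the threshold, were as follows. For vehicle-treated mutants against wild type, Nckap1 was 0 with upper quartile scaling, and with library size scaling Nckap1 was 0.05, Wasf2 0.03 and Brk1 0.01. Abi1 was -0.03 with the length and GC offset with or without the block, and Wasf2 was 0 with both. With a library left out Abi1 ran from -0.02 to 0.19, Wasf2 from -0.20 to 0.12, Wasf3 from -0.06 to 0.07, Nckap1 from -0.17 to 0.13 and Brk1 from -0.17 to 0.03. Between treated and untreated mutants, the length and GC offset gave 0 for Wasf2 and -0.01 for Brk1, and with the block -0.02 for Brk1. With a library left out Wasf2 ran from -0.11 to 0.17, Cyfip1 from -0.01 to 0.04, Cyfip2 from -0.08 to 0.03, Brk1 from -0.11 to 0.20, Abi1 from -0.01 to 0.06, Nckap1 from -0.24 to 0.13 and Abi2 from -0.20 to 0.08. For treated mutants against wild type, Brk1 was 0.01 with upper quartile scaling, 0.07 with library size scaling and 0 with at least 1 CPM in every library. Library size scaling also gave 0.05 for Wasf2, 0.02 for Wasf3 and 0.01 for Nckap1, and the block with the offset 0.02 for Wasf2. With a library left out Abi1 ran from 0 to 0.22, Wasf2 from -0.17 to 0.14, Nckap1 from -0.27 to 0.10 and Brk1 from -0.18 to 0.13.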
